A study of Rattus norvegicus with 18 samples.

Results

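Hippocampal neurons with reduced MEF2 were compared after 6 h and after 1 h in raised potassium. The comparison rests on the 6 arrays whose titles name MEF2 RNAi and 6 or 1 h of KCl, 3 at each time, of 18 arrays in all. Each array carries a replicate number, 1 to 3. The main fit did not use this number, so its SEs and p-values are unpaired. An alternative fit took the replicate number as a block. The neurons came from rat hippocampus, were dissociated and kept in culture for 10 days, and received lentivirus on day 3. In these 6 cultures the virus carried short hairpin RNAs (shRNAs) against MEF2A and MEF2D, here the RNAi arm. The other arm carried control shRNAs and was treated alike. On day 10 all cultures were given AP5, a blocker of NMDA receptors, and TTX, a blocker of voltage-gated sodium channels, for 1 h. They then received 55 mM KCl, which depolarizes the membrane, for 0, 1 or 6 h. The 0 h arrays hold the blockers without KCl. The labels call the arrays of a group biological replicates and say no more of where they came from, so p-values measure the spread between these cultures. The hairpin sequences and the share of transduced cells were not given in the sources used here.

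MEF2 proteins (MEF2A to MEF2D) are transcription factors of the MADS family. In neurons, calcium entry activates them through calcineurin and through release of class IIa histone deacetylases, and they are known for limiting the number of excitatory synapses. Depolarization first raises immediate early genes, mostly transcription factors and feedback regulators whose transcripts need no new protein and are short-lived. A later set follows, of secreted factors, receptors and enzymes that act on the synapse and its surroundings. A contrast of 6 h with 1 h therefore reads the fall of the first set and the rise of the second.

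Signals are the deposited linear intensities of single probe sets, which are groups of short oligonucleotides read out as 1 value. The 6 arrays had medians of 240.6 to 243.4. Across probe sets, the correlation between 2 arrays was 0.994 to 0.998 within a group and 0.984 to 0.990 between 1 h and 6 h. Changes are differences of log2 signal, 6 h minus 1 h, with their standard error (SE) from limma, n = 3 arrays per group, and the threshold for a call was an adjusted p under 0.05. In bulk RNA, fewer cells of a type and less RNA per cell cannot be told apart.

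Of 10934 genes tested, 1522 were called higher at 6 h than at 1 h in the RNAi arm (13.9%) and 1901 lower (17.4%). At least 2-fold changes were less frequent, with 83 called genes higher and 84 lower. The median over all genes was -0.006. The control arm, measured on other arrays, gave 1642 genes higher (15%) and 2236 lower (20.4%). Called in both arms with the same direction were 2773 genes, which is 81.0% of the RNAi arm's calls and 71.5% of the control arm's. Just 1 gene was called in opposite directions. The changes of the 2 arms correlated at r = 0.898 across genes, and genes are no independent replicates.

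The knockdown itself was read first. Mef2a gave signals of 577, 594 and 549 in the RNAi 1 h arrays and 451, 561 and 443 in the RNAi 6 h arrays, against 2051 to 2331 and 1534 to 1928 in the control arm at the same times. All 6 RNAi arrays lay below all 6 control arrays. Within the RNAi arm Mef2a changed by -0.25 (SE 0.10, adjusted p = 0.0627) from 1 h to 6 h, which missed the threshold, and with the replicate number as a block the adjusted p was 0.0423. Mef2d, the other target, had signals of 303, 338 and 294 at 1 h and 337, 388 and 383 at 6 h with RNAi, below the 409.6 to 425 and 521 to 591 of the control arm. The 1 h and 6 h values of Mef2d overlapped, and the rise of 0.24 (SE 0.077, adjusted p = 0.0244) was lost without RNAi 1 h replicate 1 or 3 or RNAi 6 h replicate 2 or 3, and when the 6 arrays alone were fitted. Another Mef2d probe set showed 0.057, not called. Whether these probe sets lie in the stretch that the hairpins target was not tested.

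Mef2c, a family member that the hairpins were not made against, rose. Its signals were 436, 549.7 and 579.6 at 1 h and 753, 832 and 1006 at 6 h, without overlap. The change was 0.73 (SE 0.13, adjusted p = 0.000517), beside 0.64 in the control arm. Mef2b, another such member, showed 0.006 and was not called. Hdac5, a class IIa histone deacetylase that binds and represses MEF2, went from 1509, 1589 and 1421 to 2588, 2853 and 2693. Every 6 h array was above every 1 h array, and the rise was 0.85 (SE 0.092, adjusted p = 5.44e-06), beside 1.26 in the control arm. Hdac4, a close relative, rose by 0.44 (SE 0.14, adjusted p = 0.0216), a call lost without RNAi 1 h replicate 1 or 2 or RNAi 6 h replicate 3. Of 7 tested members of the MEF2 and class IIa deacetylase list, 4 rose, none fell (beside 13.9% and 17.4% of all genes), and the median was 0.24.

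Early genes were first taken as a class defined in the control arm alone, as the 130 genes called higher at 1 h than at 0 h there, so that the RNAi arrays had no part in choosing them. In the RNAi arm 37 of them fell between 1 h and 6 h (28.5%, against 17.4% of all genes) and 34 rose further (26.2%, against 13.9%), with a median of -0.042. With the replicate block in the fit the class held 235 genes, of which 61 fell, beside 2524 of all 10934 genes. The 40 whose rise at 1 h had been at least 2-fold moved more often in 1 direction. Of these, 25 fell in the RNAi arm and 5 rose, with a median of -0.75 and quartiles of -1.26 and -0.20. The other 90, induced less than 2-fold, gave 12 falls and 29 rises (32.2%, against 13.9% of all genes), with a median of 0.11.

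Promoters of 4 of these genes are shown because they hold letters of sites known to carry depolarization to early genes. Each run is the 250 bases before the start of the gene, 5′ to 3′ on the gene's strand, from RefSeq on build GRCr8. Capitals mark, in Egr1 (chr18:26736828-26737077, plus strand) and Egr2 (chr20:21054442-21054691, minus strand), the CArG box bound by serum response factor. In Ier2 (chr19:40399123-40399372, plus strand) they mark the full cyclic AMP response element TGACGTCA, bound by CREB. In Nr4a1 (chr7:134259888-134260137, plus strand) they mark the element's half-site TGACG, read on the other strand as CGTCA.
Egr1: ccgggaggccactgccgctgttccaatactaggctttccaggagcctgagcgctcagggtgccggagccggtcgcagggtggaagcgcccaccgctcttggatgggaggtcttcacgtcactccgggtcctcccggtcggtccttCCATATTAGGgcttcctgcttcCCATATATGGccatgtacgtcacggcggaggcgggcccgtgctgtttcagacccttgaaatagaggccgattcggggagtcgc
Egr2: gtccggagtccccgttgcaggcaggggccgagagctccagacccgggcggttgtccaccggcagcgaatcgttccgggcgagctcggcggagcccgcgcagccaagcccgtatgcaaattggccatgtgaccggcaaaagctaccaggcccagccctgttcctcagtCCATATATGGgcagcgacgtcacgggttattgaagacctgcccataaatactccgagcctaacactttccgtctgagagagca
Ier2: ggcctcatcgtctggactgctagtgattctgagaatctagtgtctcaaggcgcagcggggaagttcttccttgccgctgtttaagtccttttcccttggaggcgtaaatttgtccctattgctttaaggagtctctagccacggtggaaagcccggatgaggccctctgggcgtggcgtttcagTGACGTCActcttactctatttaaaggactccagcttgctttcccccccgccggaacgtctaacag
Nr4a1: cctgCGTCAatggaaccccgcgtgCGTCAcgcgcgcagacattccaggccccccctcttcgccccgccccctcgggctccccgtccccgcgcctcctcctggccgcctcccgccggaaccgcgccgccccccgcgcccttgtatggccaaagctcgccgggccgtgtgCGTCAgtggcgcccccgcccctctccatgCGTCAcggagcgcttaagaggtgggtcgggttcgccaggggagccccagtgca
The 2 CArG boxes of Egr1 begin 105 and 83 bases before the start, and the single box of Egr2 begins 83 bases before it. The full element of Ier2 begins 66 bases before the start, and the half-sites of Nr4a1 begin 246, 226, 82 and 53 bases before it. Both strands were searched in all 33469 promoter entries of the same length, and a half-site inside a full element counts as a half-site too. A CArG box was present in 1.50% of them, TGACGTCA in 1.59%, TGACG in 18.2%, and the MEF2 element, searched by its consensus, in 2.96%. None of these 4 windows held the MEF2 element. A match describes these letters alone. Of 22 genes looked up, 21 had an entry, and Arc did not. The 4 were chosen for their matches. The 12 early genes looked up differed from the 12 named by size of their 1 h rise, with Klf4 in place of Fos. Fos was not looked up. Of the 11 with an entry, 2 held a CArG box (Egr1, Egr2), 2 the full element (Ier2, Dusp1) and 9 a half-site. Fosb and Klf4 held none of the motifs searched.

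Arc, whose protein acts in the removal of AMPA receptors from synapses, had the largest fall of all named genes. Its RNAi signals were 2130.4, 1526 and 2026 at 1 h and 282, 308 and 329 at 6 h. All 1 h arrays stood far above all 6 h arrays, which lay close to the 0 h arrays (277 to 327). The change was -2.62 (SE 0.12, adjusted p = 2.9e-09), which left 16.3% of the 1 h signal, and 16.1% was left in the control arm, where the 1 h arrays read 3306 to 3889. Arc thus started from a lower 1 h level with RNAi.

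Egr1, Egr2 and Egr4, zinc-finger transcription factors of the EGR family, all fell. Egr1, whose 1 h arrays read 11766, 10890.1 and 11519.6, was at 3333, 1991 and 1875 after 6 h. The groups did not overlap, and the fall was 2.30 (SE 0.29, adjusted p = 2.17e-05), leaving 20.4% of the 1 h signal. Egr4 went from 2134, 2488 and 2578 to 599, 556 and 519.5, again without overlap. It fell by 2.10 (SE 0.17, adjusted p = 3.78e-07), which left 23.3%, beside 34.5% in the control arm, and it was still above 0 h by 1.43 (adjusted p = 6.48e-06).

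Of the 12 named early genes, Egr2 was the one whose arms stood furthest apart at 1 h. Its RNAi signals were 1174, 1101 and 1400.3 at 1 h and 576, 357 and 618 at 6 h, while the control arm read 2834, 3081 and 2648 and 698, 505 and 674. The RNAi 1 h arrays were below all control 1 h arrays, and at 6 h the arms overlapped. The fall in the RNAi arm was 1.28 (SE 0.24, adjusted p = 0.000781), leaving 41.2% of the 1 h signal, beside 21.7% with control shRNAs. The difference between the arms' changes was 0.92 (SE 0.34, adjusted p = 0.629), which missed the threshold.

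Members of the AP-1 complex, in which FOS and JUN proteins pair to bind DNA, followed. Fosb had signals of 6075, 6365 and 7236 at 1 h and 1977, 1977 and 1849 at 6 h, with no overlap and little spread at 6 h. It fell by 1.76 (SE 0.19, adjusted p = 4.93e-06), more on average than in the control arm (1.17), and the difference of -0.59 (SE 0.27, adjusted p = 0.77) was not called. Junb went from 6542, 7415 and 8298 to 2648, 2837 and 2774, also without overlap. Its fall of 1.42 (SE 0.11, adjusted p = 2.19e-07) left 37.3% of the 1 h signal, beside 48.6% in the control arm.

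Jun fell by 0.75 (SE 0.10, adjusted p = 3.82e-05). Fos itself, at 9975, 10762 and 11017 after 1 h, still read 6265, 6049.6 and 6341 after 6 h. Although no 6 h array reached any 1 h array, its change of -0.77 (SE 0.35, adjusted p = 0.109) missed the threshold, since the SE takes in the spread of all 6 groups, and it was called when its own 6 arrays alone were fitted. Fos remained above 0 h by 3.55 (adjusted p = 9.81e-07).

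Ier2, a nuclear early response protein and the gene printed with a full cyclic AMP response element, read 5386, 5368 and 6514 at 1 h and 1881, 1813 and 1899 at 6 h. The groups did not overlap, with a fall of 1.62 (SE 0.12, adjusted p = 1.42e-07) that left 32.5%, beside 33.3% in the control arm. Klf4, a Krüppel-like factor reported as a MEF2 target, went from 3608, 4929 and 5922 to 1578, 1732 and 1737. It fell by 1.49 (SE 0.14, adjusted p = 1.24e-06), and the 1 h arrays were uneven, with replicate 1 the lowest.

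The nuclear receptors Nr4a1 and Nr4a2 act without a known ligand. Nr4a1, a reported MEF2 target, had signals of 7332, 9310.4 and 11036 at 1 h and 2439, 3168 and 5573 at 6 h. Replicate 3 was highest at both times and the groups did not overlap. The fall was 1.38 (SE 0.24, adjusted p = 0.000355), leaving 38.5% of the 1 h signal, beside 53.3% in the control arm. Nr4a2 fell by 1.05 (SE 0.24, adjusted p = 0.00327), and its 1 h signals of 3156, 5181 and 5469 also placed replicate 1 lowest.

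**Figure D1:**
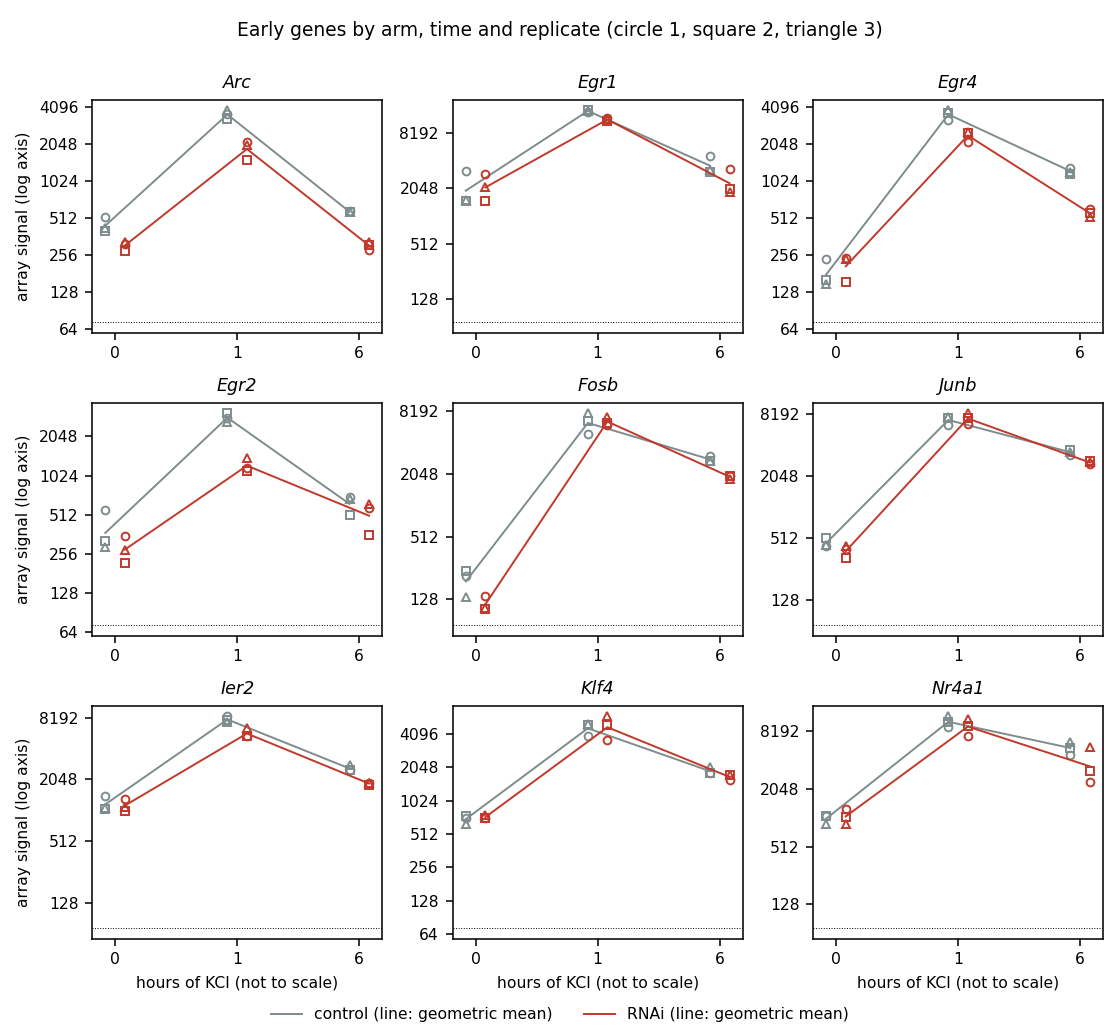
Array signals of 9 early genes at 0, 1 and 6 h of KCl in the control arm (grey) and the RNAi arm (red) on a log axis, 1 marker shape per replicate, with lines through geometric means and the dotted floor at 72.61. All 9 were lower at 6 h than at 1 h on every RNAi array, and the RNAi 1 h arrays of Arc, Egr1, Egr2, Egr4 and Ier2 all lay below the control 1 h arrays.

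Over the whole list of immediate early transcription factors, 26 were tested, 14 fell (against 17.4% of all genes), 5 rose and 7 were not called. Their median was -0.51 in the RNAi arm and -0.24 in the control arm. None of the 26 differed between arms at the limma threshold, 7 had an unadjusted p under 0.05, and the difference was below 0 for 20 of them, beside 5289 of all 10934 genes. The 5 that rose were Nfil3 at 0.99, Klf2 at 0.92, Fosl1 at 0.88, Csrnp1 at 0.75 and Myc at 0.58. These names were chosen after their values were seen. The call of Klf2 was lost without RNAi 1 h replicate 1, where its change was 0.55, without RNAi 6 h replicate 2 (0.83), and in the fit on the 6 RNAi arrays alone. Nfil3 is a basic leucine zipper repressor, Klf2 a Krüppel-like factor and Fosl1 a late member of the FOS family.

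Feedback regulators of early signalling gave 3 rises and 2 falls among 14 tested, beside 13.9% and 17.4% of all genes. With the replicate block 4 fell, beside 2524 of all 10934 genes. Dusp1, a nuclear phosphatase of MAP kinases, read 8263, 8326 and 9118 at 1 h and 4331, 4530.5 and 4731 at 6 h. It fell without overlap by 0.92 (SE 0.10, adjusted p = 4.66e-06), beside 0.88 in the control arm. Dusp2, a related phosphatase, fell by 0.86 (SE 0.12, adjusted p = 6.93e-05). Dusp14 moved the other way, from 825, 730.0 and 845 to 1762, 1476 and 1427, a rise of 0.95 (SE 0.10, adjusted p = 3.03e-06). Spry4, an inhibitor of receptor tyrosine kinase signalling, rose by 0.57 (SE 0.14, adjusted p = 0.00453). Rgs4, which speeds G protein shut-off, rose by 0.46 (SE 0.14, adjusted p = 0.0206), a call lost without RNAi 1 h replicate 1 or RNAi 6 h replicate 3, and its other probe set, at 0.43, was not called.

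Effectors that act at or near the synapse were tested in a list of 13, of which 6 rose and 3 fell, Arc among the latter, beside 13.9% and 17.4% of all genes. Gadd45g, a small stress protein tied to DNA demethylation, had signals of 2568, 2987 and 3251 at 1 h and 1445, 1289.5 and 1158 at 6 h. The groups did not overlap, and the fall was 1.18 (SE 0.15, adjusted p = 2.85e-05), beside 0.58 in the control arm. Its relative Gadd45a rose instead, by 0.84 (SE 0.13, adjusted p = 0.00015). Sgk1, a kinase downstream of growth factor signalling, went from 1218, 2110.2 and 1869 to 4153, 4630.2 and 4366, a rise of 1.38 (SE 0.18, adjusted p = 2.95e-05) beside 1.92 in the control arm. Rgs2, a regulator of Gq signalling, rose from 2415, 3282 and 3215 to 5674, 5759 and 5509.9, by 0.94 (SE 0.17, adjusted p = 0.000424). Homer1, a scaffold of metabotropic glutamate receptors with a short activity-induced form, has 5 probe sets on the array, and they differed widely. The brightest rose by 0.27 (SE 0.068, adjusted p = 0.00646). Another read 655.5, 679.5 and 700.9 at 1 h and 3726.5, 3784.3 and 3525.6 at 6 h, without overlap, and rose by 2.44 (SE 0.12, adjusted p = 1.02e-08), beside 3.18 in the control arm, a difference that was not called (adjusted p = 0.17). The other 3 showed 0.33, called, and 0.17 and 0.16, not called. Which Homer1 transcripts each probe set reads was not tested.

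Late genes were again defined in the control arm alone, as the 129 genes called and at least 2-fold higher at 6 h than at 0 h that were not called at 1 h. In the RNAi arm 123 of them rose between 1 h and 6 h (95.35%, against 13.9% of all genes). None fell, against 17.4% of all genes, and the median was 0.89. The control arm's median for the same genes was 1.09, but those arrays chose the class. Taken the other way, all 78 late genes defined in the RNAi arm rose in the control arm, against 15% of all genes. Their median there was 1.17. The late rise therefore took place in both arms.

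The largest rise belonged to Serpinb2, an inhibitor of plasminogen activators. Its RNAi signals were 47.5, 47.5 and 65.7 at 1 h, all under the floor of 72.61, and 917, 645 and 816 at 6 h. The gene was thus at least 10.8-fold higher at 6 h (adjusted p = 1.94e-10), and in the control arm the 6 h arrays read 1571, 1012 and 1275, all higher than those with RNAi. Emp1, a tetraspan membrane protein, went from 610.3, 687 and 658 to 5139, 5074 and 4862, which is 7.72-fold, with 2.95 (SE 0.26, adjusted p = 7.49e-07) in log2. Its RNAi 6 h arrays were all above the control 6 h arrays (2760.0 to 3296). Another, dimmer Emp1 probe set rose by 0.495. Il6r, a subunit of the interleukin-6 receptor, read 123, 159 and 178 at 1 h and 616, 1064 and 742 at 6 h, a rise of 2.37 (SE 0.18, adjusted p = 2.8e-07).

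Among secreted factors and neuropeptides 10 of 17 rose (beside 13.9% of all genes) and 1 fell, with medians of 0.61 in the RNAi arm and 0.64 in the control arm. Bdnf, the neurotrophin that signals through TrkB, had signals of 390.5, 626 and 695 at 1 h and 1726, 1806 and 2219 at 6 h. All 6 h arrays were above all 1 h arrays, of which replicate 1 was the lowest, and the rise was 1.78 (SE 0.16, adjusted p = 1.19e-06). Bdnf belongs to the early class by its rise at 1 h in the control arm and rose further, and another, dimmer probe set rose by 0.31. In the control arm Bdnf reached 3086, 2856 and 3336 at 6 h, above every RNAi array, and its rise was 2.40. The difference between the arms' changes, -0.62 (SE 0.23, adjusted p = 0.655), was not called.

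Precursors of neuropeptides were among the genes that rose. Tac1, which encodes substance P, read 269, 299.6 and 439.9 and then 747, 552 and 1031, a rise of 1.19 (SE 0.24, adjusted p = 0.00123). Sst, the somatostatin precursor of a class of interneurons, went from 943, 1109 and 1370.4 to 2388, 1841 and 3121, by 1.09 (SE 0.23, adjusted p = 0.0017). Penk, the enkephalin precursor, rose by 0.75 (SE 0.16, adjusted p = 0.00161). Nptx1, a secreted pentraxin that clusters AMPA receptors, rose by 0.55 (SE 0.11, adjusted p = 0.00118). The member that fell was Fst, the activin-binding protein follistatin, at 481, 948 and 838 after 1 h and 232, 336 and 294 after 6 h. Its fall of 1.35 (SE 0.31, adjusted p = 0.00355) was called, while another Fst probe set showed -0.68 and was not called.

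Extracellular proteases, their inhibitors and matrix proteins made a list of 8, of which 6 rose (beside 13.9% of all genes) and 1 fell. Ccn2, connective tissue growth factor, had signals of 129, 291 and 242 at 1 h and 566, 726 and 943 at 6 h, with replicate 1 lowest at both times. Its rise was 1.80 (SE 0.46, adjusted p = 0.0063). Ccn1, a related matrix protein that behaves as an early gene, went the other way, from 666, 1091 and 1322 to 456, 487 and 558, and fell by 0.98 (SE 0.23, adjusted p = 0.00313). Plat, tissue plasminogen activator, rose by 0.49 (SE 0.13, adjusted p = 0.00817), and Timp1, an inhibitor of matrix metalloproteinases, by 0.48 (SE 0.11, adjusted p = 0.00302).

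Some markers of endothelial cells and fibroblasts moved beside these genes. The collagens of the list, Col1a1 (0.019), Col1a2 (-0.10) and Col3a1 (0.145), were called in neither arm. Of 7 markers tested, 4 rose (beside 13.9% of all genes), with a median of 0.31 in the RNAi arm and -0.075 in the control arm. In the control arm 2 rose, Cldn5 by 1.32 and Kdr by 0.31, while Dcn (0.17) and Lum were not called there. The summed signal of the markers was 1951 to 2351 in the RNAi 1 h arrays, 2671 to 3174 at RNAi 6 h, 3263 to 4166 at control 1 h and 3644 to 3999 at control 6 h. Pecam1 was at the floor on all 12 arrays. Lum, a collagen-binding proteoglycan, read 96.3, 107 and 101 and then 229, 225 and 199 with RNAi, a rise of 1.10 (SE 0.26, adjusted p = 0.00377), while the control arm changed by -0.23, a difference that was not called (adjusted p = 0.304). Dcn, another proteoglycan, rose by 0.71 (SE 0.14, adjusted p = 0.000977), Kdr, a receptor of vascular endothelial growth factor, by 0.31 (SE 0.082, adjusted p = 0.0083), a call lost with the mean of its probe sets. Cldn5, a tight junction protein, rose by 0.51 (SE 0.15, adjusted p = 0.0145), a call lost without RNAi 6 h replicate 2. The part of these cells in the rise of extracellular genes was not tested.

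Other genes with large rises were named by size alone. Gprc5a, an orphan G protein-coupled receptor, read 209.8, 212 and 216 at 1 h and 672, 755 and 1398 at 6 h, with replicate 3 the highest, and rose by 2.07 (SE 0.22, adjusted p = 4.99e-06). Tnfrsf12a, the receptor of the cytokine TWEAK, went from 912, 1021 and 1136 to 3038, 3061 and 3386, by 1.63 (SE 0.16, adjusted p = 2.54e-06). Opn3, an opsin, rose by 1.79 (SE 0.12, adjusted p = 9.92e-08) and Slc5a3, a myo-inositol transporter, by 1.68 (SE 0.31, adjusted p = 0.000649). Among them was Chst8, a sulfotransferase, at 1.66 (SE 0.14, adjusted p = 6.29e-07). Baz1a, a chromatin remodelling subunit named instead as a late gene of the control arm, rose by 1.45 (SE 0.19, adjusted p = 2.83e-05). Mlf1 rose by 2.07 (SE 0.31, adjusted p = 0.00012), Hsf2bp by 1.65 (SE 0.13, adjusted p = 3.35e-07) and Ypel4 by 1.57 (SE 0.13, adjusted p = 4.99e-07).

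Id1, an inhibitor of basic helix-loop-helix factors, rose from 491, 364 and 302 to 1438, 929.9 and 1045, by 1.56 (SE 0.21, adjusted p = 4.48e-05). Its 1 h arrays lay below the 0 h arrays (719 to 902), so that part of the rise returned it to its level before KCl. Bhlhe40, a transcriptional repressor of the circadian clock, had the same course, with 191 to 307 at 0 h, 117, 121 and 123 at 1 h and 366, 254 and 337 at 6 h. It rose by 1.39 (SE 0.18, adjusted p = 3.59e-05), beside 0.66 in the control arm, a difference of 0.73 (SE 0.26, adjusted p = 0.597) that was not called.

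**Figure D2:**
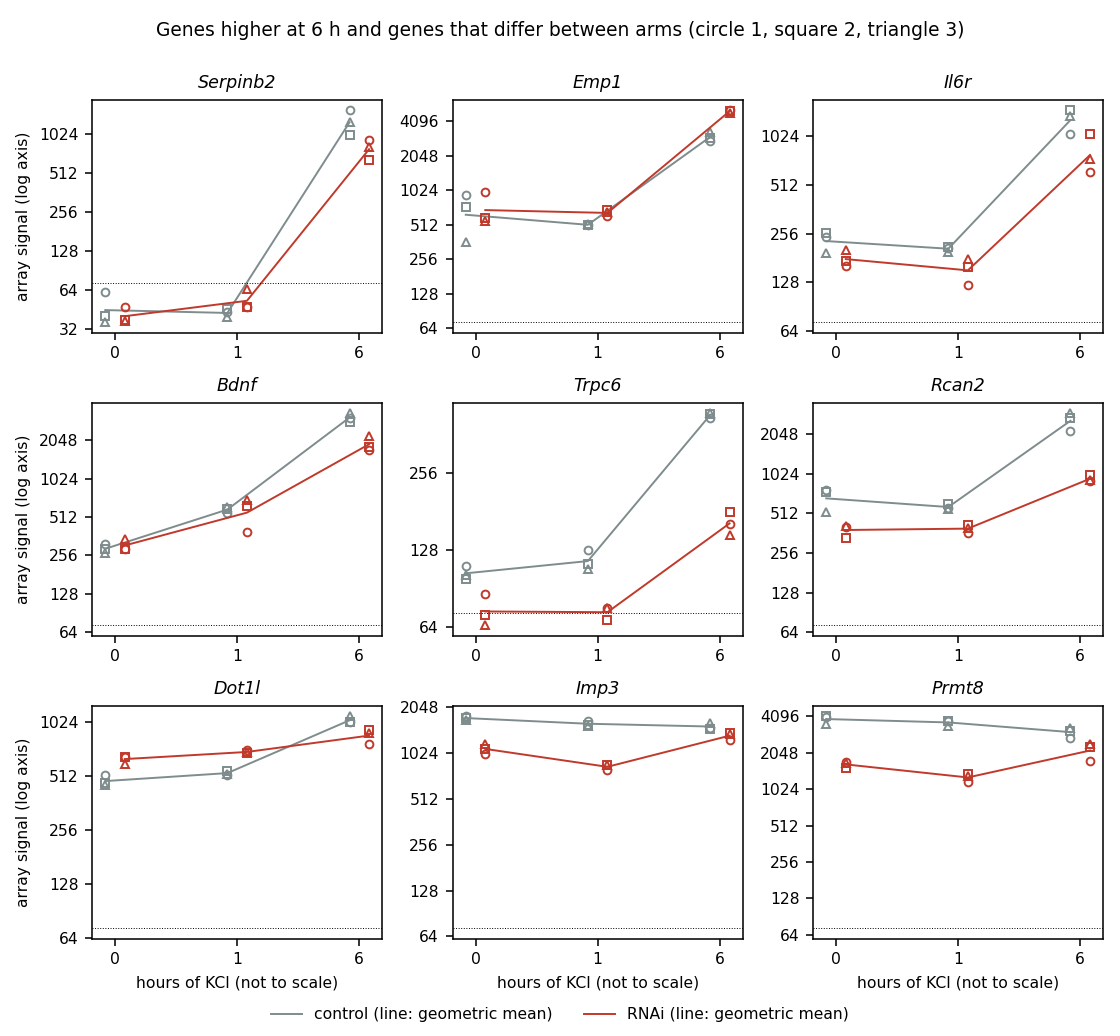
Array signals of 3 late genes (Serpinb2, Emp1, Il6r), of Bdnf, an early gene that rose further, and of 5 genes whose change differed between arms, at 0, 1 and 6 h of KCl in the control arm (grey) and the RNAi arm (red) on a log axis, 1 marker shape per replicate, with lines through geometric means and the dotted floor at 72.61. Trpc6 and Rcan2 rise less with RNAi, Dot1l rises less from a higher start, and Imp3 and Prmt8 rise with RNAi alone.

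Falls between 1 h and 6 h were not limited to early genes. The control arm gave 147 genes called and at least 2-fold lower at 6 h than at 0 h without a 1 h call. In the RNAi arm 142 of them fell (96.6%, against 17.4% of all genes), with a median of -0.94. Zmat1, a zinc finger protein, had signals of 906, 849.8 and 952 at 1 h and 237, 295 and 237 at 6 h. The groups did not overlap, and the fall of 1.82 (SE 0.12, adjusted p = 9.92e-08) stood beside 1.67 in the control arm. Ccdc34, a coiled-coil protein, fell by 1.30 (SE 0.11, adjusted p = 3.94e-07) and Scrn3, a secernin, by 1.43 (SE 0.12, adjusted p = 4.47e-07). Zc3h6, a zinc finger protein, went from 159.6, 180.1 and 155 to values under the floor on all 3 arrays and was at least 2.27-fold lower (adjusted p = 6.41e-05).

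Other genes with large falls were named by size alone. Ttc8, a subunit of the BBSome that carries cargo to cilia, read 422, 383 and 420.2 and then 154, 126 and 129.9, a fall of 1.59 (SE 0.12, adjusted p = 1.52e-07). Ift81, of the intraflagellar transport complex, fell by 1.44 (SE 0.10, adjusted p = 1.42e-07) and Cep70, a centrosomal protein, by 1.47 (SE 0.10, adjusted p = 9.92e-08). Rars2, the mitochondrial arginyl-tRNA synthetase, fell by 1.55 (SE 0.16, adjusted p = 2.89e-06), and Fbxl4, a mitochondrial F-box protein, by 1.50 (SE 0.11, adjusted p = 2.15e-07). Lrrc24, a leucine-rich repeat protein, fell by 1.67 (SE 0.18, adjusted p = 4.77e-06) and Ngly1, a cytosolic enzyme that removes N-glycans, by 1.43 (SE 0.18, adjusted p = 1.99e-05). Tp53rkb stood apart from these, since it was induced early, from 984 to 1073 at 0 h to 2488, 3543 and 3404 at 1 h, and returned to 1169, 1073 and 1082.

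Reported MEF2 targets were tested as a list of 13, drawn from general knowledge of MEF2 and sharing members with other lists. Of these 6 rose, 6 fell and 1 was not called (beside 13.9% and 17.4% of all genes), with medians of 0.27 in the RNAi arm and 0.30 in the control arm. Those that fell were led by Arc, Egr1, Klf4, Nr4a1 and Jun, described above. Kcna4, a potassium channel subunit, rose by 0.75 (SE 0.20, adjusted p = 0.0104), a call lost without RNAi 6 h replicate 2 or 3. No member differed between arms at the limma threshold, and 2 had an unadjusted p under 0.05.

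Genes of mRNA decay and of the BTG and TOB family, whose proteins recruit deadenylases, gave 2 rises and 3 falls among 13, beside 13.9% and 17.4% of all genes. Btg3 read 1335, 1538 and 1585 at 1 h and 2763, 3150.4 and 3452 at 6 h, a rise of 1.07 (SE 0.12, adjusted p = 6.59e-06). Tob1 fell by 0.85 (SE 0.082, adjusted p = 1.76e-06) and Btg1 by 0.38 (SE 0.064, adjusted p = 0.000314). Zfp36, which binds AU-rich elements and promotes decay of early transcripts, rose by 0.43 (SE 0.12, adjusted p = 0.0131), a call lost without RNAi 1 h replicate 2 or RNAi 6 h replicate 2. Pnrc1, a factor of mRNA decapping, fell by 0.50 (SE 0.15, adjusted p = 0.0202), a call lost without RNAi 1 h replicate 2 or 3 or RNAi 6 h replicate 1.

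Calcium signalling genes gave 7 rises and 3 falls among 16, beside 13.9% and 17.4% of all genes. Camkk1 fell by 0.57 (SE 0.082, adjusted p = 7.26e-05) and Camkk2 rose by 0.37 (SE 0.079, adjusted p = 0.00191), although both encode kinases that activate other calmodulin-dependent kinases. Camk2d rose by 0.55 (SE 0.10, adjusted p = 0.000774) and Ppp3ca, the catalytic subunit of calcineurin, fell by 0.27 (SE 0.046, adjusted p = 0.000334), but another probe set of each was not called, at -0.16 and -0.007. A further Ppp3ca probe set was called lower, at -0.20. Rcan2, an inhibitor of calcineurin, had the largest rise of the list and is described with the differences between arms.

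Among 11 voltage-gated potassium channel genes 2 rose and 2 fell, and among 15 sodium and calcium channel genes 3 rose and 3 fell, beside 13.9% and 17.4% of all genes. With the replicate block 4 potassium channel genes rose, beside 2056 of all 10934 genes. Cacnb2, an accessory subunit of calcium channels, went from 433, 432 and 529.5 to 820.0, 1069 and 1070.5, a rise of 1.08 (SE 0.12, adjusted p = 4.7e-06). Cacna1d, a pore-forming subunit of L-type channels, fell by 0.77 (SE 0.14, adjusted p = 0.000594) and Scn2b, a sodium channel accessory subunit, by 0.69 (SE 0.11, adjusted p = 0.000142). Cacna1b, the N-type pore, fell by 0.79 (SE 0.091, adjusted p = 9.05e-06), while another probe set showed 0.19, not called. Scn3a rose by 0.65 (SE 0.13, adjusted p = 0.00128). Kcnab1, a potassium channel accessory subunit, fell by 0.70 (SE 0.14, adjusted p = 0.000924), with another probe set at -0.17, not called.

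Of 23 glutamate receptors and scaffolds 1 rose and 1 fell, of 18 synaptic vesicle genes 3 rose and none fell, and of 10 genes of the inhibitory synapse 2 rose and none fell, beside 13.9% and 17.4% of all genes. With the replicate block 3 glutamate receptors and scaffolds rose and 2 fell, and 1 vesicle gene fell. Of all 10934 genes 2056 rose and 2524 fell with the block. Gad1, which makes GABA, had signals of 1059, 1001 and 1075 at 1 h and 2049.7, 1704 and 1788 at 6 h, without overlap, a rise of 0.82 (SE 0.14, adjusted p = 0.000398). Vamp1, a vesicle fusion protein, rose by 0.61 (SE 0.078, adjusted p = 2.48e-05), with other probe sets at 0.20 and 0.039, not called. Dlg1, a scaffold of glutamate receptors, rose by 0.32 (SE 0.074, adjusted p = 0.00347). Dlg3, its relative, fell by 0.55 (SE 0.091, adjusted p = 0.000248), with other probe sets at -0.45, called, and -0.23, not called. For Grin1, the obligatory NMDA receptor subunit, the brightest probe set gave 0.25 (SE 0.10, adjusted p = 0.0765), not called, and it was called with the replicate block (adjusted p = 0.00278). Another probe set fell by 0.76, so the direction depends on the probe set.

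The clock list gave 4 rises among 13 and no fall (beside 13.9% and 17.4% of all genes). With the replicate block 5 rose and 1 fell, beside 2056 and 2524 of all 10934 genes. Per2 rose by 0.85 (SE 0.11, adjusted p = 2.82e-05), Cry1 by 0.61 (SE 0.12, adjusted p = 0.000691) and Per1 by 0.53 (SE 0.13, adjusted p = 0.00646), all of them repressors of the clock, and Bhlhe40 was described above. The list of endoplasmic reticulum stress and heat shock gave 4 rises and no fall among 15. Chac1, which degrades glutathione, went from 4116, 4222 and 4537 to 7086, 6081 and 5707, a rise of 0.55 (SE 0.10, adjusted p = 0.000516), beside 1.08 in the control arm and a difference of -0.53 (SE 0.14, adjusted p = 0.287). Hsph1, a heat shock protein, rose by 0.49 (SE 0.079, adjusted p = 0.00022) and Asns, asparagine synthetase, by 0.46 (SE 0.10, adjusted p = 0.00274).

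Glucose-responsive and glycolytic genes gave 2 rises and 4 falls among 16, beside 13.9% and 17.4% of all genes. Arrdc4, an arrestin-like protein regulated by glucose, led the falls and is described below. Pfkp, a phosphofructokinase, rose by 0.48 (SE 0.12, adjusted p = 0.00469) and Ldha, lactate dehydrogenase A, by 0.25 (SE 0.053, adjusted p = 0.00182). In the list of apoptosis and p53 genes 1 of 9 rose and 1 fell, and in cholesterol synthesis 2 of 11 rose and 1 fell. With the replicate block the falls in the apoptosis list were 2, and cholesterol synthesis gave 4 rises and 2 falls. The block gave 2056 rises and 2524 falls over all 10934 genes. Of 9 housekeeping controls 2 rose, led by Hprt1 at 0.30 (SE 0.055, adjusted p = 0.000607).

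**Figure D3:**
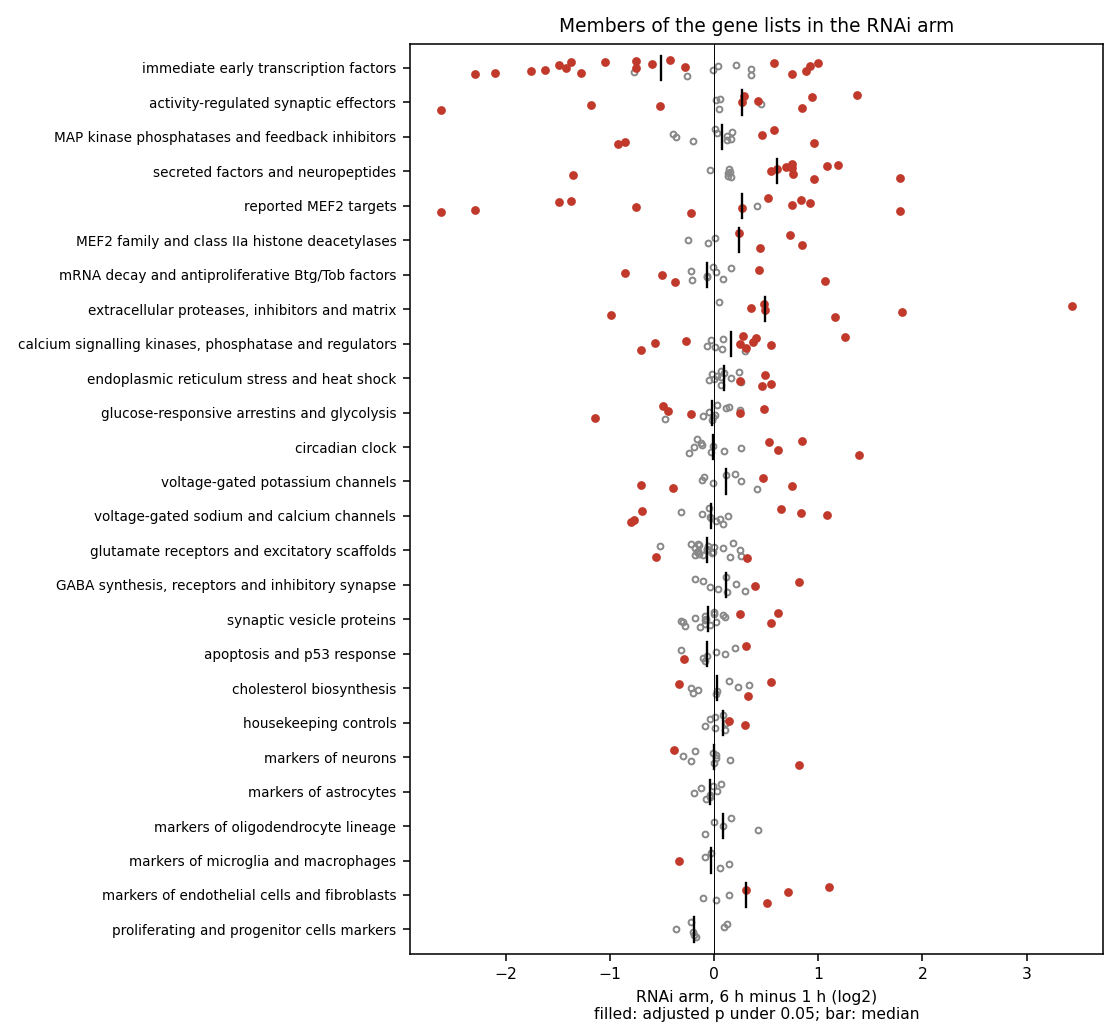
Each point is a tested member of 1 of 26 gene lists, placed at its 6 h minus 1 h change in the RNAi arm (log2, x axis), filled where called, with a bar at the list's median. Immediate early transcription factors have the lowest median, -0.51, and secreted factors and extracellular proteins lie mostly to the right, with medians of 0.61 and 0.48.

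Whether the change from 1 h to 6 h differed with MEF2 reduced was tested by the interaction, the RNAi arm's change minus the control arm's. It called 5 of 10934 genes (0.0457%), 3 of them higher, and 674 genes had an unadjusted p under 0.05. With the replicate number as a block 77 genes were called (0.704%), 45 higher and 32 lower, and all 5 were among them. The 5 depended on single arrays. Their number was 3, 2 and 1 without RNAi 1 h replicate 1, 2 and 3, and 5, 6 and 5 without RNAi 6 h replicate 1, 2 and 3. It was 3, 1 and 1 without control 1 h replicate 1, 2 and 3, and 9, 1 and 3 without control 6 h replicate 1, 2 and 3. Imp3 was called under each of these omissions. With no filter on dim genes 12 genes were called, and with the 12 arrays of these 4 groups alone 3 were.

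Imp3, a protein of the small ribosomal subunit processome, had RNAi signals of 789.5, 856 and 849.5 at 1 h and 1253, 1377 and 1366 at 6 h. In the control arm it read 1673, 1565 and 1546 and 1501, 1483 and 1604. The RNAi 1 h arrays were the lowest of the 12, and Imp3 rose by 0.68 (SE 0.065, adjusted p = 1.63e-06) with RNAi while the control arm changed by -0.06. The difference was 0.74 (SE 0.091, adjusted p = 0.00664).

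Prmt8, an arginine methyltransferase of neurons, had a similar course. With RNAi it read 1167, 1364 and 1324 and then 1758, 2303 and 2426, and with control shRNAs 3773, 3786 and 3426 and then 2713, 3134 and 3310.4. All RNAi arrays lay below all control arrays, and Prmt8 rose by 0.74 (SE 0.11, adjusted p = 0.00011) in the RNAi arm alone. The difference was 1.01 (SE 0.16, adjusted p = 0.0277). This call was lost in the fit on the 1 h and 6 h arrays alone and without any single 1 h array. It was also lost without RNAi 6 h replicate 2 or 3 or control 6 h replicate 2. Sdhaf3, an assembly factor of succinate dehydrogenase, held its signal with RNAi, from 1292, 1494 and 1356 to 1334, 1277 and 1400.2, and dropped in the control arm from 1278, 1269 and 1279.5 to 713, 732 and 755. At 1 h the arms were close and at 6 h they did not overlap, a difference of 0.75 (SE 0.11, adjusted p = 0.0154). The Sdhaf3 call was lost without RNAi 1 h replicate 3, control 1 h replicate 2 or 3, or control 6 h replicate 2.

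Trpc6, a calcium-permeable cation channel, rose less with RNAi. Its RNAi signals were 76.3, 68.3 and 75.9 at 1 h, of which replicate 2 was under the floor, and 163, 181 and 147 at 6 h. The control arrays read 129, 113 and 108 and 419.5, 435 and 439, above the RNAi arrays at each time. The rises were 1.12 with RNAi and 1.89 without, a difference of -0.77 (SE 0.12, adjusted p = 0.0288). That call was lost in the fit on the 1 h and 6 h arrays alone and without any single RNAi 1 h array. It was also lost without RNAi 6 h replicate 1 or 3, or replicate 2 or 3 of control 1 h or control 6 h. The promoter of Trpc6 (chr8:14043966-14044215, plus strand, RefSeq, GRCr8) held 1 half-site TGACG, in capitals, and no MEF2 element.
Trpc6: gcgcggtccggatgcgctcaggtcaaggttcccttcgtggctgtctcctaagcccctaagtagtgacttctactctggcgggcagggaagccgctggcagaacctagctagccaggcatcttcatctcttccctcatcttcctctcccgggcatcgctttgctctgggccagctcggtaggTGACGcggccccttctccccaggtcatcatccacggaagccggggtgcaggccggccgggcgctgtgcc
Dot1l, the histone H3 lysine methyltransferase of transcribed genes, rose from 709.5, 685 and 693 to 766, 927 and 889.6 with RNAi and from 521, 545 and 526 to 1020.0, 1016 and 1099 with control shRNAs. RNAi arrays were higher at 1 h and lower at 6 h, and the difference was -0.67 (SE 0.10, adjusted p = 0.0245). With the mean of probe sets the difference was -0.34 (limma adjusted p = 0.0985), not called. The Dot1l call was also lost in the fit on the 1 h and 6 h arrays alone, without any single 1 h array, and without control 6 h replicate 2 or 3.

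Rcan2 was called with the block alone. It rose from 361, 421 and 397 to 909, 998 and 909.7 with RNAi, by 1.26 (SE 0.14, adjusted p = 5.5e-06), and from 564, 604 and 549.7 to 2167, 2701 and 2947 in the control arm. Every RNAi array was below every control array of its time, and the difference was -0.92 (adjusted p = 0.0374 with the block, 0.118 without). Tchh, an intermediate filament-associated protein, went from 69.2, 58.5 and 74.6, 2 of them under the floor, to 247, 427 and 228, and in the control arm from 144, 165 and 128 to 1368, 1727 and 1437. The difference was -1.40 (adjusted p = 0.0401 with the block, 0.282 without), and the floor makes the RNAi rise of 1.98 an underestimate.

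In other genes, too, the RNAi arm's change was below the control arm's. Nppc, the C-type natriuretic peptide precursor, read 296, 399 and 449 and 370.0, 437 and 447 with RNAi, overlapping, and 349, 380.0 and 353 and 815, 781 and 929.9 in the control arm, a difference of -1.07 (adjusted p = 0.0215 with the block, 0.118 without). Dusp4, a MAP kinase phosphatase, changed by -0.21 with RNAi, not called, and by 0.57 in the control arm, a difference of -0.78 (adjusted p = 0.0161 with the block, 0.154 without). Clip1, a microtubule plus-end protein, differed by -0.77 (adjusted p = 0.0156 with the block, 0.287 without), and Kcnk12, a tandem-pore potassium channel, by -0.72 (adjusted p = 0.00358 with the block, 0.439 without). Prkca, protein kinase C alpha, rose by 0.30 (SE 0.10, adjusted p = 0.0325) with RNAi, a call lost without RNAi 1 h replicate 2 or 3 or RNAi 6 h replicate 1, with its 6 arrays alone or with no filter, and differed by -0.74 (adjusted p = 0.00315 with the block, 0.0874 without).

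In the opposite group the control arm fell more. Arrdc4 went from 776, 659 and 716 to 429.9, 284 and 277 with RNAi, a fall of 1.14 (SE 0.13, adjusted p = 1.05e-05), and from 553, 495 and 515 to 112, 126 and 124 in the control arm. RNAi arrays were higher at both times, and the difference was 0.97 (adjusted p = 0.016 with the block, 0.0874 without). Chodl, a C-type lectin membrane protein, read 1186, 1931 and 1620.0 and 1343, 1978 and 2190.2 with RNAi, overlapping, and 2674, 2626 and 2594 and 928, 1358 and 1469 in the control arm. The difference was 1.32 (adjusted p = 0.00315 with the block, 0.153 without). P2ry1, a receptor for ADP, had RNAi signals of 86.1, 114 and 119 and 99.8, 118 and 129.6, while the control arm dropped from 254, 227 and 238 to 100.1, 135 and 122, a difference of 1.15 (adjusted p = 0.0072 with the block, 0.181 without). The RNAi 1 h signals of P2ry1 were not far above the floor of 72.61 and already at or below the range of the control 6 h arrays.

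Rtn4rl1, a Nogo receptor homologue, rose with RNAi by 0.68 (SE 0.20, adjusted p = 0.0159), a call lost without RNAi 1 h replicate 1 or RNAi 6 h replicate 2 or 3, and changed by -0.18 in the control arm, a difference of 0.87 (adjusted p = 0.0242 with the block, 0.492 without). Serinc2 differed by 0.79 (adjusted p = 0.0311 with the block, 0.287 without), Sertm1 by 0.77 (adjusted p = 0.0136 with the block, 0.13 without) and Ankrd49 by 0.77 (adjusted p = 0.00917 with the block, 0.287 without), each with a called fall in the control arm. With the block, Ankrd49 also rose in the RNAi arm (adjusted p = 0.00874), as did Kcnk12 (adjusted p = 0.0189).

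The labelled cell type was checked against markers of 6 cell classes. Of all 10934 genes, 13.9% rose and 17.4% fell, and 4373 had an unadjusted limma p under 0.05. The counts below stand beside these shares. Of 10 neuronal markers tested, 1 rose (Gad1) and 1 fell, namely Tubb3, a neuronal tubulin, by 0.38 (SE 0.10, adjusted p = 0.00677). Their summed signal was 54110 to 61870 in the RNAi 1 h arrays and 53547 to 58776 at 6 h, beside 59872 to 64374 and 61047 to 63845 in the control arm. Astrocyte markers were present at sums of 45707 to 54322 and 43987 to 52216, beside 36744 to 46404 and 36933 to 44138 in the control arm. None of 8 was called by limma or had an unadjusted p under 0.05, while Gfap was called lower with the replicate block (-0.19, adjusted p = 0.0407). Oligodendrocyte lineage markers summed to 9163 to 13766 and 8923 to 15949, with no limma call among 5, 1 of them at an unadjusted p under 0.05, and Mog at the floor on all 12 arrays. With the block Mbp, a myelin protein, was called (0.425, adjusted p = 0.00367), and so was a further neuronal marker, the neurofilament Nefl (-0.22, adjusted p = 0.028). Microglial markers summed to 1502 to 1645 and 1502 to 1574, Cd68, a lysosomal marker of macrophages, fell by 0.34 (SE 0.07, adjusted p = 0.00162), and Ptprc was at the floor on all 12. Of 7 markers of proliferating and progenitor cells none was called by limma or had an unadjusted p under 0.05, while Dcx was called lower with the block (-0.21, adjusted p = 0.0148). The cultures thus held glial as well as neuronal transcripts, and the part of glia in the changes and in the differences between arms was not tested.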

How the data were processed

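Total RNA of the cultures was hybridized as biotin-labelled cRNA to 18 Affymetrix arrays, 3 per group, per the labels' protocols. The authors deposited 1 linear intensity per probe set and array. The method of probe summarization and array scaling is not named in the labels used here. Depth has no meaning for arrays, and their number limits precision.

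Of 31099 probe sets, 20832 had 1 symbol in the platform annotation, 436 several and 9831 none listed. By Entrez ID 20764 matched the RefSeq table of GRCr8, used for names alone. Intensities under the table's 20th percentile (72.61) were raised to it before log2. Each of 14218 genes was read from its brightest probe set, and 10934 that exceeded the 40th percentile of an array on at least 3 arrays were tested with limma 3.58.1 in R 4.3.3 (lmFit, eBayes), 1 mean per group, two-sided, with Benjamini-Hochberg adjustment. The residual degrees of freedom were 12. The script was tested on simulated data.

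Named genes are the 15 largest rises and falls without overlap, up to 8 interaction genes each way, 12 early, 12 late higher and 8 late lower genes, a fixed set and 5 members of each list. Naming interaction genes with the block was chosen after values were seen. Members and lists were chosen with earlier results of these data known. The 26 lists held 393 places, of which 353 were on the array and 319 tested.

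Replicate numbers pair the arrays. Deviations of same-numbered RNAi arrays at 1 h and 6 h correlated at 0.663, 0.518 and 0.741, and all 45 such pairs over the 6 groups at 0.168 to 0.741. The block value is printed where it changes the call of a named gene. Alternatives were the block, own arrays alone, log2 of the value plus 16, quantile normalization, no filter, a 60th percentile filter, the mean of probe sets and omission of each array.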

Additional observations from a re-analysis of the deposited data

Results flagged for a closer look

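The change from 1 h to 6 h differed between the RNAi and the control arm, by the test of the difference itself, for 19 named genes. Without the replicate block these were Imp3 (0.739), Sdhaf3 (0.754) and Prmt8 (1.006), higher in the RNAi arm, and Trpc6 (-0.769) and Dot1l (-0.674), lower, all in log2.

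With the block alone, Chodl (1.316), P2ry1 (1.149), Arrdc4 (0.967), Rtn4rl1 (0.868), Serinc2 (0.791), Sertm1 (0.767) and Ankrd49 (0.765) were higher in the RNAi arm. Tchh (-1.396), Nppc (-1.071), Rcan2 (-0.917), Dusp4 (-0.779), Clip1 (-0.767), Prkca (-0.742) and Kcnk12 (-0.721) were lower. Among these 7 are a calcineurin inhibitor (Rcan2), a calcium-dependent kinase (Prkca) and a secreted peptide (Nppc).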

How the results depend on the processing

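Calls from 1 h to 6 h in the RNAi arm numbered 2792 to 3133 without 1 array (1221 to 1321 higher, 1548 to 1812 lower), 4580 with the replicate block and 3135 to 3511 under the other alternatives. The control arm gave 3272 to 3529 without 1 array and 3162 to 4894 otherwise. The classes were drawn anew in each setting. Early genes that fell numbered 28 to 47 without 1 array, in classes of 100 to 144, and 61 with the block, of 235. Of all 10934 genes 2524 fell with the block. Late genes that rose numbered 109 to 145 without 1 array, in classes of 114 to 152, and 86 of 91 with the mean of probe sets. Late lower genes that fell numbered 133 to 157, in classes of 142 to 166, and 105 of 108.

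The interaction gave 5 calls, 77 with the block, 3 on its own arrays, 12 without a filter and 1 to 9 without 1 array. Omission of RNAi 1 h replicate 3, either control 1 h array numbered 2 or 3, or control 6 h replicate 2 left 1 call. Omission of RNAi 1 h replicate 2 left 2, that of either 1 h array numbered 1 or of control 6 h replicate 3 left 3, and that of control 6 h replicate 1 gave 9. The cause was not tested.

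Of 115 called values of named genes, 100 kept the call under every alternative. Those that did not were the RNAi changes of Cldn5, Hdac4, Kcna4, Kdr, Klf2, Mef2d, Pnrc1, Prkca, Rgs4, Rtn4rl1 and Zfp36 and the interactions of Dot1l, Prmt8, Sdhaf3 and Trpc6. Signs turned for 6 RNAi changes that were not called, and the cause was not tested. Serinc2 was at 0.011 after quantile normalization and ran from -0.181 to 0.081 without 1 array, above 0 without RNAi 1 h replicate 3 (0.053), 6 h replicate 1 (0.020) or 6 h replicate 2. Grin1 was at -0.258 with the mean of probe sets. Without 1 array Nppc ran from -0.023 to 0.279 and P2ry1 from -0.016 to 0.233, both lowest without RNAi 1 h replicate 1. Sdhaf3 ran from -0.091 to 0.014 and Sertm1 from -0.188 to 0.078, highest without RNAi 1 h replicate 2 and 6 h replicate 2. With 3 arrays a group, small differences between arms could not be told from the spread, and values at the floor have no order.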

Other observations

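Genes of the primary cilium and the centrosome were looked at as groups after their values were seen, so the counts below are descriptions with no test. Of 17 tested genes named Ift, which encode the intraflagellar transport machinery, 8 fell and 2 rose from 1 h to 6 h in the RNAi arm, with a median of -0.33, beside 17.4% lower and 13.9% higher of all genes. In the control arm 10 fell and 1 rose, with a median of -0.36. The members ran from -1.44 (Ift81) to 0.66. Of 24 tested genes named Cep, which encode centrosomal proteins, 9 fell and 2 rose (against the same shares of all genes), with a median of -0.20 in the RNAi arm and -0.27 in the control arm. The 6 genes of the BBSome gave 2 falls and 1 rise in each arm, with medians of -0.17 and -0.16. No member of these groups differed between arms at the limma threshold.

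The 4 inhibitors of basic helix-loop-helix factors, Id1 to Id4, gave 2 rises and no fall in the RNAi arm (beside 13.9% and 17.4% of all genes), with a median of 0.78, and 2 rises and 1 fall in the control arm, with a median of 0.58.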
